A study of Mus musculus with 36 samples.

Results

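The Ink4 and Kip inhibitors of cyclin-dependent kinases treated here are encoded by 6 genes, the Ink4 genes Cdkn2a, Cdkn2b, Cdkn2c and Cdkn2d, and the Kip genes Cdkn1b and Cdkn1c. They are 6 of the 21955 genes listed in the count tables and were taken by symbol from all 36 libraries. Cdkn2b, Cdkn2c, Cdkn2d, Cdkn1b and Cdkn1c encode the proteins p15, p18, p19Ink4d, p27 and p57. Of the 6 genes, 4 passed the filter on low counts and were tested with all other genes, and Cdkn2a and Cdkn2b did not and are given as raw counts. The data are total RNA-seq of liver from the inbred strain C57BL/6JN, in young animals of 4 months and old animals of 18 months. Each age was sampled at time points labelled before, 48, 72, 96, 120 and 240 of a regeneration course, with 3 biological replicates in each of the 12 groups. The labels give no unit for the time points, no allele or agent, and do not say how regeneration was started. Old mice were entered as the treated group, so that young mice served as the reference.

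As background, a cell passes from G1 into S phase when cyclin D with Cdk4 or Cdk6, and then cyclin E with Cdk2, phosphorylate the retinoblastoma family of pocket proteins and release E2F transcription factors. Ink4 proteins bind Cdk4 and Cdk6 and keep cyclin D from joining them, whereas Kip proteins bind assembled cyclin and kinase complexes, mainly those of Cdk2. Hepatocytes of the resting adult liver are mostly outside the cell cycle and re-enter it after loss of liver mass. Cdkn2a, which encodes p16Ink4a and in another reading frame p19Arf, is widely used as a marker of senescent cells and of age. The amount of p27 protein is set largely by its degradation, so that its messenger RNA gives only part of its regulation.

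The libraries held between 2328233 and 6034446 counts (median 4439170), so that 3 counts in a library corresponded to between 0.490 and 1.29 CPM, the depth-scaled count with TMM factors. The 8 hepatocyte marker genes summed to between 20143 and 34378 CPM over the libraries, and none of the 8 was at 0 in a group. In 12 libraries, 1 in each group, Y-linked transcripts summed to 177 CPM or more, and in the other 24 to at most 0.212 CPM. The labels do not mention this split, and results that move with it are given with and without those libraries. Old mice at 48 stood apart in their spread, with a biological coefficient of variation of 40.7% against 19.4% to 27.2% in the other groups. Whole liver was measured, so that fewer cells of a type and less RNA per cell cannot be told apart in any value below.

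On the GRCm38 genome with the GENCODE M21 annotation, the Ink4 genes lie in 3 places. Cdkn2a (chr4:89274471-89294653, minus strand) and Cdkn2b (chr4:89306299-89311039, minus strand) are neighbours separated by 11645 bp. Cdkn2c lies elsewhere on the same chromosome (chr4:109660876-109667189, minus strand) and Cdkn2d at chr9:21288410-21291407 on the minus strand. The Kip genes are Cdkn1b at chr6:134920401-134925513 on the plus strand and Cdkn1c at chr7:143458339-143461050 on the minus strand, in an imprinted domain. In the counts both reading frames of Cdkn2a share 1 symbol and could not be separated. Cdkn1c shares 625 bp of exon with an antisense gene on the opposite strand, and the use of strand in counting is not given in the sources used here, so its counts are uncertain to that extent.

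The sequences before the transcription starts are shown for the genes whose messenger RNA rose together in young mice at 48, and for the start of p19Arf, because E2F factors are known to act on several cell cycle genes. They come from RefSeq on GRCm38.p6, which had entries for 5 of the 6 genes, and are cut to the bases outside annotated exons, except the first stretch of Cdkn2c. The bases just before the start of Cdkn2c on the minus strand (chr4:109666763-109666792) held the E2F-like heptamer TTCCCGC, in capitals, 25 bases before the RefSeq start and inside an exon of a longer transcript. The start of p19Arf (chr4:89294699-89294728, minus strand) held the same heptamer 98 bases before it.
Cdkn2c: ggggcccggccTTCCCGCtcccgcggcgcc
Cdkn2a: tctgggaagctTTCCCGCgcgactggggac

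The heptamer TTCCCGC, its variant TTGGCGC, the variant TTCGCGC, and the variant TTGCCGC were not found on either strand before the second start of Cdkn2c (chr4:109665373-109665609), before Cdkn2d (chr9:21291408-21291459) or before Cdkn1b (chr6:134920151-134920400), shown here in lower case on the strand of the gene. The 4 heptamers were also absent before the other start of Cdkn2a (chr4:89282193-89282442) and before Cdkn2b (chr4:89311033-89311282), whose sequences are not shown. Of 32851 windows of 250 bases before RefSeq starts, 7.89% held at least 1 of the 4 heptamers, so a match is a description and not a binding site.
Cdkn2c: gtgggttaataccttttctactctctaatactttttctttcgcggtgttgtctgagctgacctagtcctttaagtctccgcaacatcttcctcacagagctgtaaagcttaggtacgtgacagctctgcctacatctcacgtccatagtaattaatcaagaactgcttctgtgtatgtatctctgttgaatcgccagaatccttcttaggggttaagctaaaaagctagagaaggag
Cdkn2d: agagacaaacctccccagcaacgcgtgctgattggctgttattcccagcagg
Cdkn1b: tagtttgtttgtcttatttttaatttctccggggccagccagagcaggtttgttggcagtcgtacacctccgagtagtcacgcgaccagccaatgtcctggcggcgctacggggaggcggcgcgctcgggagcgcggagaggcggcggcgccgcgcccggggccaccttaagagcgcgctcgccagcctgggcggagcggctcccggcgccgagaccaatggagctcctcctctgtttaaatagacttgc

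Cdkn2c, Cdkn2d and Cdkn1b all rose in young livers at 48 and were lower in old livers at that time point. Among the 4 genes tested, these 3 were called higher in young mice at 48 against before (adjusted p under 0.05), where 21.9% of all 13436 genes tested were called and 12.2% were called higher. The same 3 were called lower in old than in young mice at 48, where 11.2% of all genes were called and 6.78% were called lower. At the other time points 0 of the 4 were called between the ages by edgeR or DESeq2, with edgeR p-values of at least 0.0543 before adjustment, where edgeR called 0.0595% of all genes before, 0% at 72 and 120, 0.171% at 96 and 0.0149% at 240. Averaged over the 6 time points, 0 of the 4 were called between the ages by edgeR or DESeq2, against 5.98% of all genes, with unadjusted p-values between 0.082 for Cdkn1b and 0.88 for Cdkn1c.

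**Figure D1:**
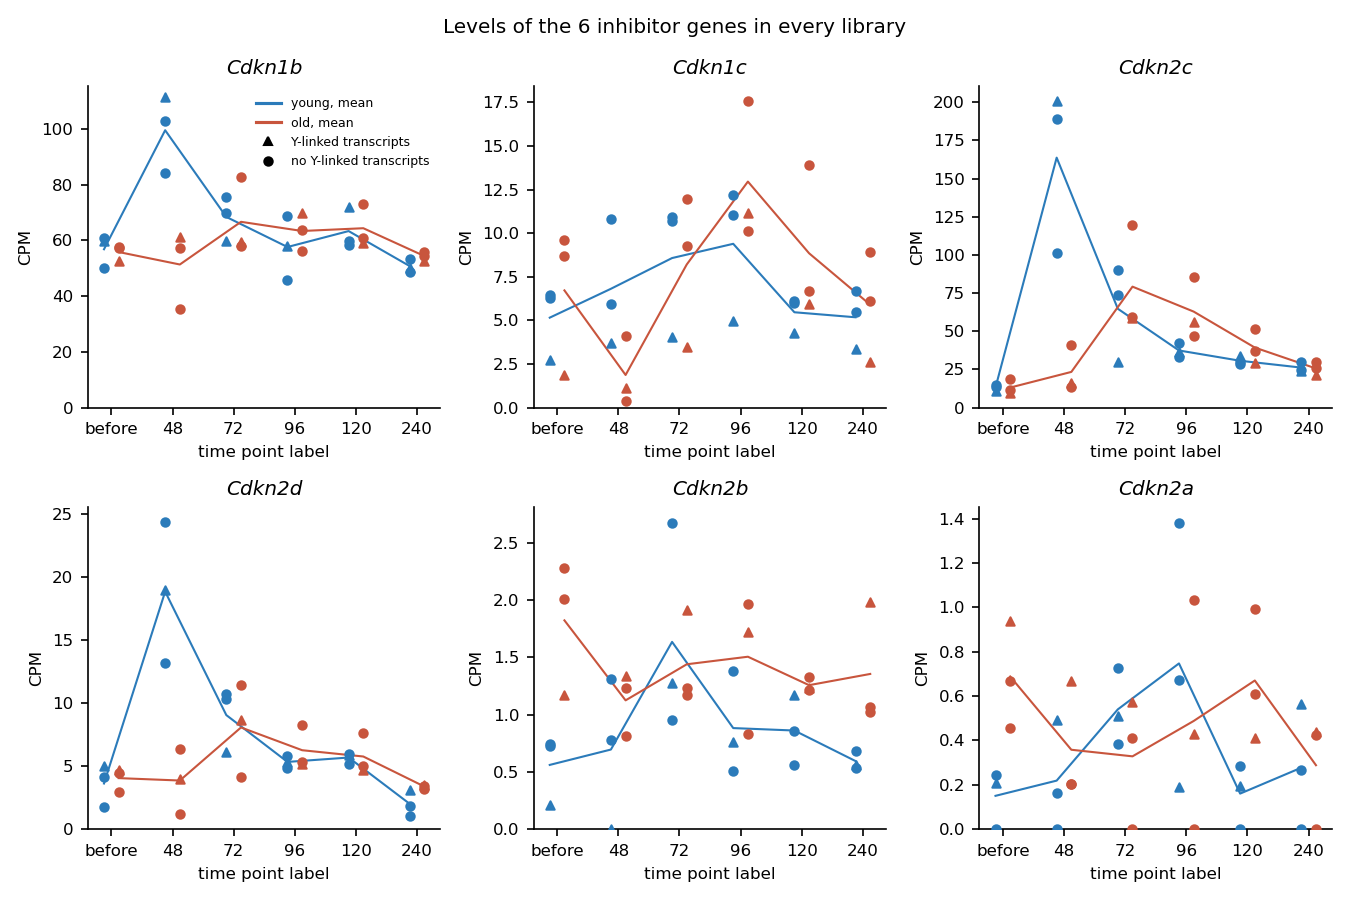
CPM of each inhibitor gene (vertical axis, from 0) against time point label (horizontal axis, evenly spaced) in young (blue) and old (red) mice. Points are libraries, triangles those with Y-linked transcripts, and lines join the means of 3 libraries; Cdkn2c reaches 101.2 to 201.1 CPM in young mice at 48 and 13.2 to 40.7 CPM in old mice.

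Cdkn2c, whose product p18 inhibits Cdk4 and Cdk6, showed the largest rise. Before, young libraries held 11.0, 14.7 and 13.8 CPM and old libraries 9.39, 18.5 and 11.4 CPM, and the ages overlapped. At 48, the young libraries held 188.9, 101.2 and 201.1 CPM. The old libraries at 48 held 16.2, 13.2 and 40.7 CPM, and each of them lay below every young library at that time point, as was so for 21.6% of all genes in either direction.

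The rise of Cdkn2c in young mice was 3.64 ± 0.42 on the log2 scale (SE), a fold of 12.4, with an adjusted p of 1.21e-06. In old mice the change from before to 48 was 0.83 ± 0.40 and was not called (adjusted p 0.133). The difference between the ages at 48 was -2.81 ± 0.40 (adjusted p 0.000119), the rank of 11 by p among all genes tested. At 72, old mice reached 59.5, 119.3 and 58.8 CPM and young mice were at 74.0, 90.4 and 29.8 CPM, so that the ages overlapped. Against before, the change at 72 was 2.30 ± 0.40 in young mice (adjusted p 0.000481, 17.4% of all genes called) and 2.59 ± 0.41 in old mice (adjusted p 0.000253, 12.4% called).

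After 72, the mean of Cdkn2c declined in both ages and stayed above that before. In old mice it was called higher than before at 96 (2.26 ± 0.40, adjusted p 0.0016, 6.82% of all genes called) and at 120 (1.57 ± 0.40, adjusted p 0.0267, 3.87% called). In young mice the changes at 96 and 120 were 1.50 ± 0.40 and 1.22 ± 0.40 and were not called (adjusted p 0.055 and 0.189, with 1.4% and 0.581% of genes called). The old and young libraries at 96 did not overlap (47.0 to 85.4 against 33.4 to 42.6 CPM), as in 20.6% of all genes, but the difference of 0.76 ± 0.38 was not called (adjusted p 0.395). At 240 the young mean was 26.2 ± 3.38 CPM and the old mean 25.6 ± 4.03 CPM (SD, n = 3), and neither was called against before. The call at 120 in old mice was lost without replicate 1 or 3 of old mice before (adjusted p 0.0703 and 0.143) and without replicate 1 or 2 of old mice at 120 (0.132 and 0.0537). That call was also lost without the libraries with Y-linked transcripts (adjusted p 0.0652).

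In the order of the 12 group means of Cdkn2c, young mice at 48 came first, followed by old mice at 72, young mice at 72 and old mice at 96. All 11 pairs of neighbours in that order overlapped in their libraries. The time course differed between the ages in the interaction test (adjusted p 0.00423, rank 24 by p), in which 2.76% of all genes were called. Of the 4 genes tested, 3 were called there, and Cdkn1c was not (adjusted p 0.467). Without the libraries with Y-linked transcripts, which leaves 2 libraries per group, none of the 3 interactions was called. The adjusted p was then 0.096 for Cdkn2c, 0.19 for Cdkn2d and 0.196 for Cdkn1b.

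Cdkn2d, whose product p19Ink4d also inhibits Cdk4 and Cdk6, was lower in abundance and rose at the same time point in young mice. Its young libraries held 4.99, 1.74 and 4.12 CPM before and 24.3, 13.2 and 19.0 CPM at 48. Those 3 libraries at 48 exceeded each of the other 33 libraries, of which the highest held 11.5 CPM; against the libraries before alone, such separation held for 41.4% of all genes. In old mice at 48 the values were 4.00, 1.22 and 6.34 CPM, against 2.97 to 4.70 CPM before, so that 1 library lay within, 1 below and 1 above that range.

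The rise of Cdkn2d in young mice at 48 was 2.36 ± 0.40 on the log2 scale (adjusted p 7.62e-05), a fold of 5.15. The old minus young difference at 48 was -2.29 ± 0.40 (adjusted p 0.000525). At 72 Cdkn2d was still higher than before in young mice, at 10.3, 10.7 and 6.11 CPM (1.31 ± 0.41, adjusted p 0.0277). That call was lost without replicate 2 or 3 of young mice before (adjusted p 0.139 and 0.058) and without replicate 1 or 2 of young mice at 72 (0.0989 and 0.0991). Old mice at 72 held 4.10, 11.5 and 8.62 CPM, a change of 0.98 ± 0.41 that was not called (adjusted p 0.11). That change became called without replicate 1 of old mice at 72 (adjusted p 0.041). It was also called with counts thinned to the smallest total (1.54, 0.0198), in a random draw that was not repeated. At 96 its changes from before were 0.53 ± 0.42 in young and 0.66 ± 0.42 in old mice, and at 120 they were 0.63 ± 0.42 and 0.50 ± 0.43, none of them called; with thinned counts the change in old mice at 96 was 1.42 and was called (adjusted p 0.0471). At 240, the young libraries held 3.10, 1.82 and 1.07 CPM of Cdkn2d and the old libraries 3.52, 3.40 and 3.19 CPM; the groups did not overlap, as in 10.4% of all genes, and the difference was not called (adjusted p 0.999). Its age by time interaction had an adjusted p of 0.0199, which rose above 0.05 without replicate 1 or 3 of young mice at 48 (0.106 and 0.0548) and without replicate 1 or 2 of old mice at 48 (0.0653 and 0.066).

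Cdkn1b, the gene of the Kip inhibitor p27, was the most steadily expressed of the 4. Its group means ran from 50.8 to 99.5 CPM, a ratio of 1.96, against a ratio of 12.5 for Cdkn2c and 9.44 for Cdkn2d. Young libraries held 59.7, 50.0 and 60.8 CPM before and 102.9, 84.1 and 111.6 CPM at 48. The latter exceeded each of the other 33 libraries, although the highest of those, an old library at 72, came close at 82.6 CPM. Against the libraries before alone, such separation held for 41.4% of all genes.

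The rise of Cdkn1b in young mice was 0.81 ± 0.17 on the log2 scale (adjusted p 0.000916). Old mice at 48 held 61.3, 35.4 and 57.3 CPM, against 52.6 to 57.6 CPM before, a change of -0.12 ± 0.17 that was not called (adjusted p 0.642). The age difference at 48 was -0.96 ± 0.17 (adjusted p 0.000749). From 72 on, the changes of Cdkn1b from before lay between -0.16 and 0.27 in both ages and its age differences lay between -0.04 and 0.14 and none was called. Its interaction with an adjusted p of 0.0378 was the weakest of the 3: it rose above 0.05 when 16 of the 36 libraries were left out in turn, most strongly without replicate 3 or 1 of young mice at 48 (0.148 and 0.127) or replicate 2 of old mice at 48 (0.136), and with the replicate number as a block (0.0654).

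**Figure D2:**
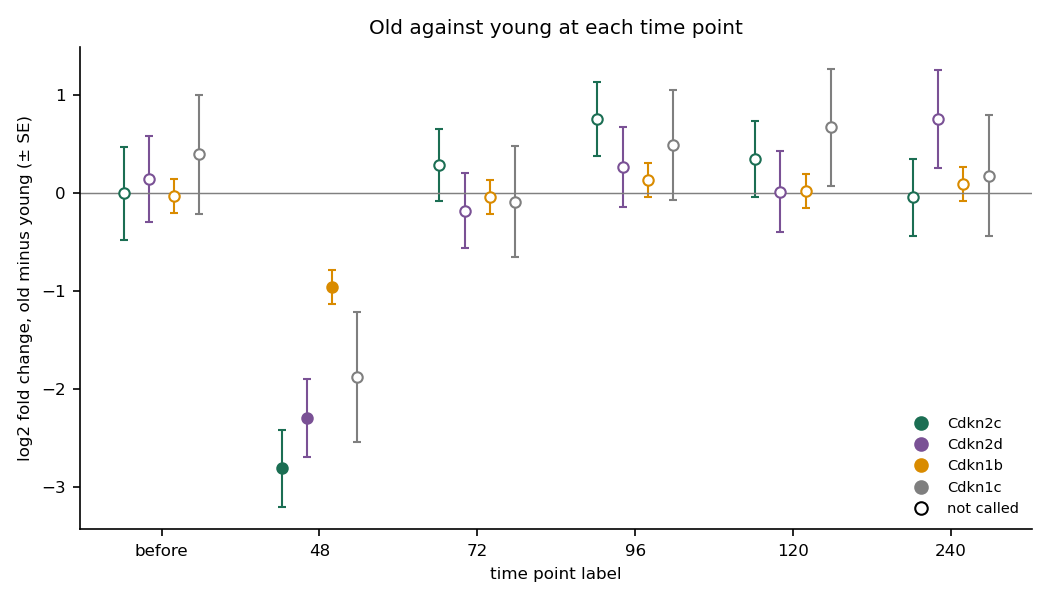
Log2 fold change of old against young mice (vertical axis) at each time point label (horizontal axis) for the 4 genes tested, with bars of 1 SE. Filled points had an adjusted p under 0.05: the 3 filled points are Cdkn2c (-2.81), Cdkn2d (-2.29) and Cdkn1b (-0.96) at 48, and points at the other time points lie nearer to 0.

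The 3 age differences at 48 were called under all but 1 of the alternatives and with each library left out in turn. The fits that called them took the spread from groups of all time points. Of the 12 groups, old mice at 48 had the widest spread, with a biological coefficient of variation of 40.7%. When only the 6 libraries at 48 were fitted, the log2 differences were -2.78, -2.26 and -0.93 for Cdkn2c, Cdkn2d and Cdkn1b, but the adjusted p rose to 0.0789, 0.113 and 0.145, and 1 gene in all was called in place of 1505. Without the libraries with Y-linked transcripts, all 3 differences at 48 were still called.

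Cdkn1c, the gene of the Kip inhibitor p57, did not follow the other 3. Young libraries held 2.70, 6.47 and 6.30 CPM before and 10.8, 5.95 and 3.70 CPM at 48, and overlapped. Old libraries held 1.88, 9.61 and 8.67 CPM before and 1.11, 0.405 and 4.09 CPM at 48, which rest on 5, 2 and 20 counts. Old mice at 48 had the lowest of the 12 group means, 1.87 ± 1.96 CPM (SD, n = 3), and old mice at 96 the highest, 13.0 ± 4.04 CPM. The change in old mice from before to 48 was -1.83 ± 0.67 on the log2 scale (adjusted p 0.047), where 24.1% of all genes were called and 12% were called lower. Old and young mice at 48 differed by -1.88 ± 0.67, which was not called (adjusted p 0.067).

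The other changes of Cdkn1c from before lay between 0.03 and 0.86 in young and between -0.19 and 0.96 in old mice, and none was called. Both results for Cdkn1c at 48 were close to the threshold. The call against before was lost when 23 of the 36 libraries were left out in turn, with values from -3.13 to -1.31 and the highest adjusted p (0.207) without replicate 2 of old mice at 48, the library with 2 counts. It was also lost under 6 of 10 other settings, among them the replicate block (adjusted p 0.0742). The age difference at 48 was in turn called with a term for Y-linked transcripts (adjusted p 0.00507), without those libraries (0.0385), with DESeq2 (0.0288), without replicate 3 of old mice at 48 (-3.18, 0.00916) and without replicate 1 of old mice before (0.0473). Cdkn1c was lowest in the library with Y-linked transcripts, 1 of 3 in each group, in 10 of the 12 groups. For Cdkn2c, Cdkn1b and Cdkn2d that count was 7, 4 and 3. As a term in the fit of all 36 libraries, those with Y-linked transcripts differed from the rest in Cdkn1c by -1.12 ± 0.18 on the log2 scale (adjusted p 7.87e-05), where 8.4% of all genes were called and 3.83% were called lower. That test was added after the values of Cdkn1c had been seen. In old mice at 48, markers of several cell types were also called lower than before, where 12% of all genes were. They were Alb, Cps1, Cyp2e1 and Ttr of 8 hepatocyte markers, Fcgr2b, Kdr and Oit3 of 8 endothelial markers, Adgre1, Csf1r and Vsig4 of 8 macrophage markers, and Cd79b and Ms4a1 of the 3 T and B cell markers tested. The summed level of each list at 48 against before ran from 21278 to 24722 against 22496 to 28877 CPM for hepatocytes, 307 to 425 against 406 to 582 CPM for endothelium and 145 to 682 against 634 to 906 CPM for macrophages, which all overlapped. For all 8 listed T and B cell markers it ran from 1.11 to 8.59 against 9.81 to 24.4 CPM, without overlap. The stellate and biliary sums overlapped, at 407 to 576 against 367 to 520 CPM and 56.7 to 215 against 30.8 to 62.0 CPM. In young mice the hepatocyte sum was also lower at 48, without overlap (22418 to 24055 against 29397 to 34378 CPM). So was the endothelial sum (276 to 389 against 469 to 520 CPM), while the macrophage and T and B cell sums overlapped. Of the 6 tested genes of the imprinted domain around Cdkn1c, 1 was called in old mice at 48, Osbpl5, which was lower (-1.08 ± 0.39, adjusted p 0.0457), against 24.1% of all genes called. The part of these cell types in the level of Cdkn1c was not tested.

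**Figure D3:**
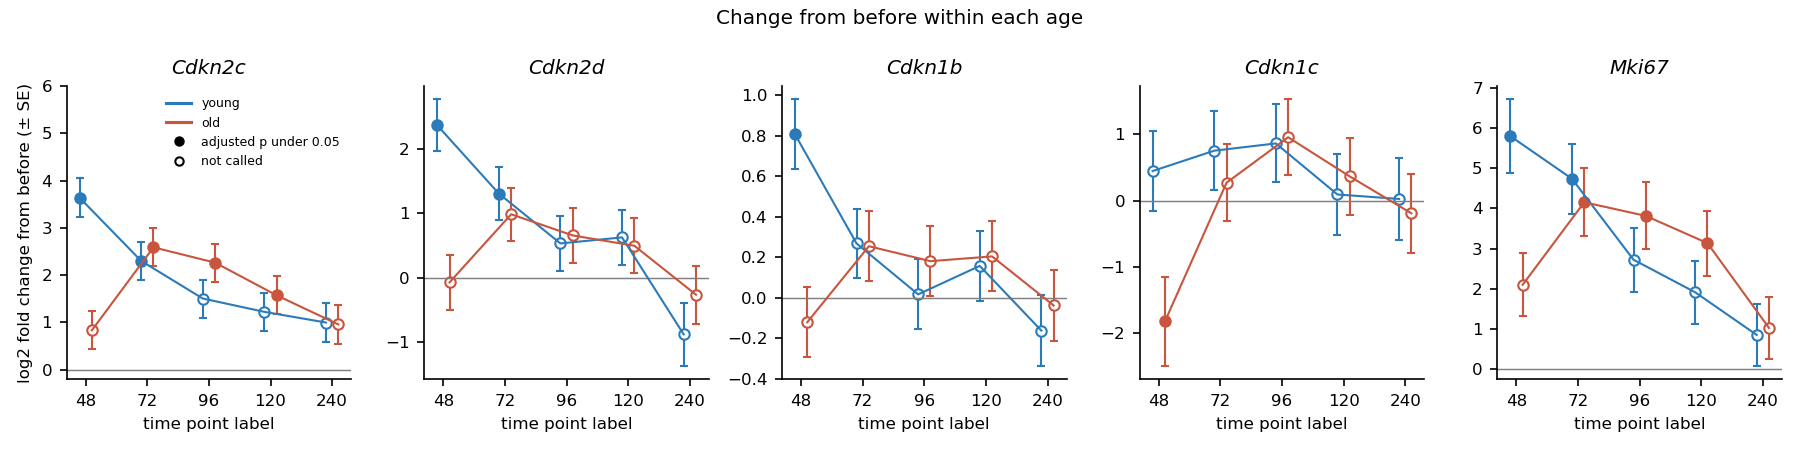
Log2 fold change from before (vertical axis, different range in each panel) at each later time point label (horizontal axis) in young (blue) and old (red) mice, with bars of 1 SE, for the 4 genes tested and Mki67. Filled points had an adjusted p under 0.05: Cdkn2c stands at 3.64 in young and 0.83 in old mice at 48, and Mki67 at 5.80 and 2.10.

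Across the whole course, 3 of the 4 genes varied over time in young mice (Cdkn2c, Cdkn2d and Cdkn1b, adjusted p 7.08e-07, 8.73e-06 and 0.000771), where 21.4% of all genes were called. In old mice 2 did, Cdkn2c (adjusted p 0.000205) and Cdkn1c (0.0464), where 20.5% were called. All these comparisons within an age share the 3 libraries before. The call of Cdkn1c was lost with 24 of the 36 libraries left out in turn (adjusted p up to 0.174), and that of Cdkn1b without the libraries with Y-linked transcripts (adjusted p 0.0517).

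The Ink4 genes of the shared locus, Cdkn2b and Cdkn2a, stayed near the floor of the assay in every group. Cdkn2b encodes p15, an inhibitor of Cdk4 and Cdk6 known to respond to TGF-beta. It had 70 counts in the 18 young and 107 counts in the 18 old libraries, with at most 11 in a library. Before, the young libraries held 1, 3 and 3 counts and the old libraries 5, 9 and 10, and the ages did not overlap, as for 14.4% of the genes tested. Over all time points the young mean was 0.871 ± 0.579 CPM and the old mean 1.42 ± 0.443 CPM (SD, n = 18). The difference of 0.546 CPM had a two-sided p of 0.00363 in a permutation test with ages exchanged within time points, and the old mean was higher at 5 of the 6 time points.

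At 72, the exception, Cdkn2b had 5, 11 and 5 counts in young and 6, 5 and 10 in old mice. With 1 library left out in turn the p of the age difference ranged from 0.00012 to 0.012 (permutation test). Without the libraries with Y-linked transcripts the difference was 0.371 CPM and was not past the threshold (permutation p 0.113). In an edgeR fit without a filter on low counts the difference was 0.76 ± 0.25 on the log2 scale with an adjusted p of 0.103, so the age difference of Cdkn2b was not called among all genes.

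Cdkn2a had 27 counts in the 18 young and 36 in the 18 old libraries, and no library held more than 5. Its count was 0 in 4 young and 3 old libraries. Before, the young libraries held 1, 0 and 1 counts and the old libraries 4, 3 and 2, and at 48 they held 1, 0 and 2 against 3, 1 and 1. Over all time points the young mean was 0.349 ± 0.345 CPM and the old mean 0.470 ± 0.320 CPM (SD, n = 18). The difference of 0.121 CPM was not past the threshold (permutation p 0.289), and at this depth no age difference of Cdkn2a was detectable. It was also not called between the ages at any time point in the fit without a filter (adjusted p 0.619 for the mean of the time points). In that fit neither gene was called against before in either age. The largest changes were 2.02 ± 1.08 for Cdkn2a in young mice at 96 (adjusted p 0.55) and 1.53 ± 0.64 for Cdkn2b in young mice at 72 (adjusted p 0.149), and fitted values at such counts depend on the prior count.

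**Figure D4:**
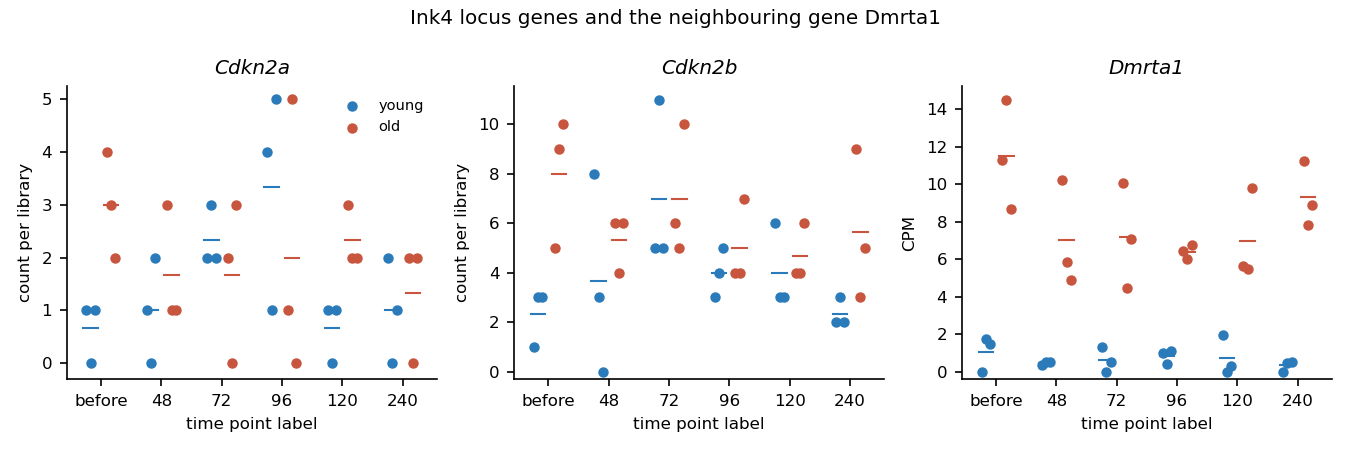
Counts per library of Cdkn2a and Cdkn2b (vertical axes) and CPM of Dmrta1, the next protein-coding gene beyond Cdkn2b, against time point label (horizontal axis) in young (blue) and old (red) mice. Points are libraries and short lines group means; no library exceeds 5 counts of Cdkn2a or 11 of Cdkn2b, while Dmrta1 is higher in every old library than in the young libraries of the same time point.

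Levels can be compared between the genes only per length of exon. Before, Cdkn1b was the highest of the 6 in both ages, with 12.5 ± 1.31 CPM per kb in young and 12.3 ± 0.617 in old mice (SD, n = 3), and Cdkn2c followed with 4.90 ± 0.709 and 4.88 ± 1.79 CPM per kb. The libraries of these 2 genes did not overlap there. In young mice at 48 the order was turned, with Cdkn2c at 60.9 ± 20.3 and Cdkn1b at 21.9 ± 3.09 CPM per kb, again without overlap. In old mice at 48 the ranges overlapped, with 4.90 to 15.2 CPM per kb for Cdkn2c and 7.79 to 13.5 for Cdkn1b, and the turned order appeared at 72 (21.9 to 44.4 against 12.7 to 18.1 CPM per kb). At 240 the 2 genes overlapped in young mice (8.81 to 11.2 CPM per kb for Cdkn2c and 10.7 to 11.7 for Cdkn1b), while in old mice Cdkn1b was the higher again, without overlap (11.6 to 12.3 against 8.02 to 11.0). Cdkn2d and Cdkn1c averaged 4.02 and 3.48 CPM per kb over the 36 libraries and Cdkn2b 0.823 CPM per kb. Exon lengths are those of GENCODE M21, which may not be the annotation behind the counts.

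**Figure D5:**
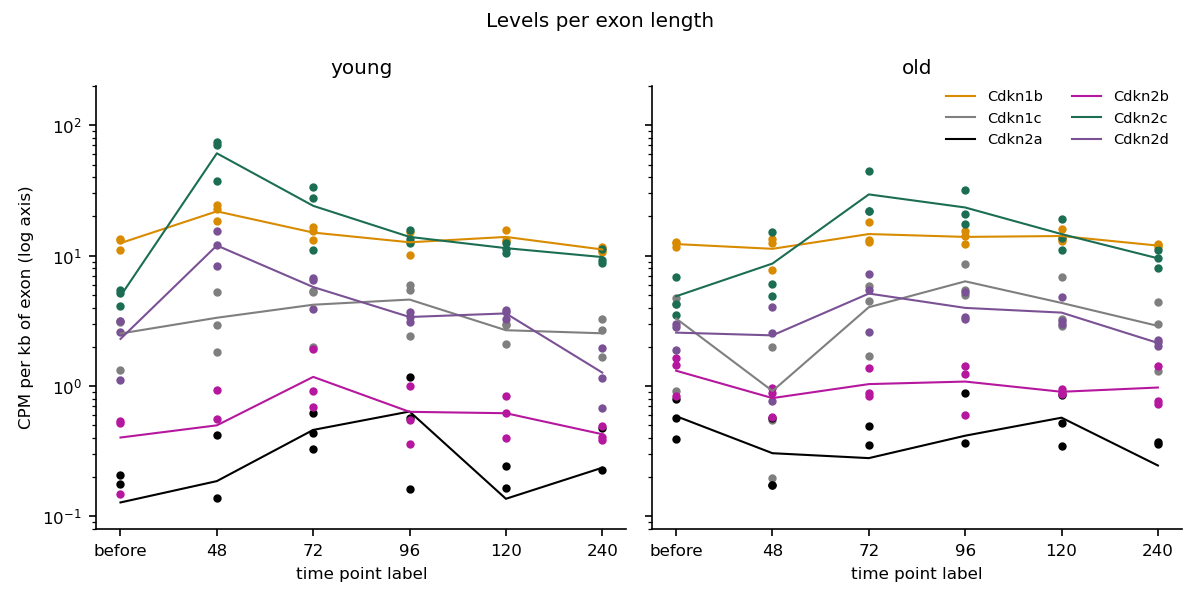
CPM per kb of exon (log axis) against time point label (horizontal axis) for the 6 genes in young (left) and old (right) mice. Points are libraries, lines join the means of 3 libraries, and the libraries with a count of 0 (7 for Cdkn2a and 1 for Cdkn2b) are not drawn as points; Cdkn2c crosses above Cdkn1b by 48 in young mice and by 72 in old mice.

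Genes whose pattern was most like that of an inhibitor were named by the highest Pearson correlation of log2(CPM + 1) over the 36 libraries, which share depth, time course and group. For Cdkn2c these were Nusap1 (r = 0.949), Smc4 (0.933), Arhgap11a (0.930), Neurl1b (0.927) and Kif22 (0.924). Nusap1, Smc4 and Kif22 encode proteins of the mitotic spindle and chromosomes. For Cdkn2d they included Kif23 (r = 0.876), Cdkn1b (0.876), Hist1h2bm (0.875) and Uhrf2 (0.871). For Cdkn1b they included Uhrf2 (r = 0.924), Cdkn2d (0.876), Ttc9c (0.849) and Ndc1 (0.829), so that Cdkn1b and Cdkn2d appeared in each other's list. For Cdkn1c the values were lower, with Aldh3b3 (r = 0.759), Slco1a4 (0.758), Akr1c20 (0.747), Zfp704 (0.738) and Txndc16 (0.738). With Mki67, a gene expressed in cycling cells, the correlation was 0.914 for Cdkn2c, 0.836 for Cdkn2d, 0.770 for Cdkn1b and 0.440 for Cdkn1c.

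At 48, markers of proliferation moved in the same direction as the 3 inhibitor genes. All 8 rose in young mice at 48 (12.2% of all genes called higher), and 7 of the 8 were lower in old than in young mice at 48 (6.78% called lower). At 48, Mki67 stood at 2595, 1404 and 2867 CPM in the young libraries and at 154, 14.0 and 561 CPM in the old ones. The old library with the most Mki67 was also the highest of the 3 in Cdkn2c and Cdkn2d, and the one with the least was the lowest in Cdkn2c, Cdkn2d and Cdkn1b. After 48, not all of these genes were called in old mice. Mki67 was called higher than before at 72, 96 and 120 (4.15, 3.81 and 3.13 on the log2 scale), as Cdkn2c was. There 12.4%, 6.82% and 3.87% of all genes were called, and Cdkn2d and Cdkn1b were not called in the main fit. Their changes in old mice at 72 were 0.98 and 0.25. In young mice at 72, Mki67 (4.74), Cdkn2c (2.30) and Cdkn2d (1.31) were called and Cdkn1b (0.27) was not, against 17.4% of all genes called. The part of the number of cycling cells in the levels of the inhibitors was not tested.

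The kinases and cyclins that the inhibitors bind were counted as lists. Of 7 Kip targets tested, 6 were higher in young mice at 48 than before, against 12.2% of all genes called higher, and the median over the 7 log2 fold changes was 4.50 against -0.01 over all genes. Ccnb1 changed by 6.72 ± 1.00 (adjusted p 2.28e-05), Cdk1 by 6.14 ± 0.89 (1.27e-05) and Ccna2 by 5.11 ± 0.75 (2.17e-05). In old mice at 48, 2 of the 7 were called, a share near the 24.1% of all genes, namely Ccne1 (2.66 ± 0.65, adjusted p 0.00391) and Ccna2 (2.11 ± 0.74, 0.0383), and at 72 there were 5, against 12.4% of all genes. Between the ages at 48, 4 of the 7 were lower in old mice (Ccna2, Cdk1, Ccnb1 and Ccnb2), against 6.78% of all genes called lower, with a median of -2.98 over the 7, and Ccnb1 differed by -4.08 ± 0.77 (adjusted p 0.00124). The same 4 were called in the interaction. Cdk2 and Ccne1 were called in neither comparison, and Cdk1 and Ccnb1 are also among the markers of proliferation above. In the fit of the 6 libraries at 48 alone, 0 of the 7 were called between the ages.

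Of the 5 Ink4 targets (Cdk4, Cdk6 and the 3 D cyclins), 1 was called in young mice at 48, a share near the 21.9% of all genes, which was Ccnd3, the gene of cyclin D3 (0.64 ± 0.19, adjusted p 0.0152). In old mice at 48, where 24.1% of all genes were called, there were 3, Cdk4 (0.60 ± 0.16, adjusted p 0.00687), Ccnd3 (0.58 ± 0.19, 0.0261) and Cdk6 (0.54 ± 0.17, 0.0191), all higher than before. Between the ages at 48, 0 of the 5 were called by edgeR, nor by DESeq2, with adjusted p by edgeR from 0.122 for Cdk6 to 0.987 for Cdk4, although Cdk6 and Ccnd2 had an unadjusted p of 0.0222 and 0.0293. The means of Cdk4 at 48 were 36.6 CPM (young) and 36.8 CPM (old), and those of Cdkn2c were 163.7 and 23.4 CPM. These values compare the ages within each gene, since levels of different genes can be compared only per length of exon.

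Of the pocket proteins on which these kinases act, Rbl1 rose by 3.36 ± 0.38 on the log2 scale in young mice at 48 (adjusted p 1.15e-06) and was lower in old mice there (-1.89 ± 0.34, adjusted p 0.0007), while Rb1 was not called in either. Rbl2 was lower in old than in young mice averaged over the time points (-0.24 ± 0.06, adjusted p 0.0182), and within old mice it was lower at 48 than before (-0.69 ± 0.15, adjusted p 0.00193). Of 8 genes that act in the turnover of p27, Cks1b and Skp2, which recognise p27 for degradation, were both higher in young mice at 48 (3.17 ± 0.40, adjusted p 2.58e-06, and 1.15 ± 0.29, 0.0044), and 2 of 8 is near the 21.9% of all genes called. Both were lower in old than in young mice at 48 (-1.83 ± 0.36, adjusted p 0.00135, and -1.20 ± 0.29, 0.0059), as Cdkn1b itself was. With the replicate block, and without replicate 2 of old mice at 48, 1 of the 2 was called there. Of 5 genes that act on the transcription of Cdkn1b, Foxo3 and Foxo4 were lower at 48 than before in both ages: Foxo3 changed by -1.31 ± 0.25 in young and -1.33 ± 0.25 in old mice (adjusted p 0.000248 and 0.000404), where 21.9% and 24.1% of all genes were called. Between the ages at 48, 0 of the 5 were called by edgeR or DESeq2, with the lowest unadjusted p by edgeR at 0.142 for Myc.

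Of 11 genes known to act on the Cdkn2a and Cdkn2b locus, 5 were called in young mice at 48 (3 higher and 2 lower) and 4 in old mice (2 and 2), against 21.9% and 24.1% of all genes. Cbx7, a Polycomb protein that represses the locus, was lower at 48 in both ages (-1.05 ± 0.35, adjusted p 0.0303 in young, and -1.67 ± 0.36, 0.00125 in old), and Bmi1, another Polycomb protein, was higher (0.46 ± 0.16, 0.0375, and 0.47 ± 0.16, 0.0318). Ets2, which can activate p16Ink4a, and Id1, which opposes it, were the 2 of the 11 called between the ages averaged over the time points, against 5.98% of all genes, and both were higher in old mice (0.35 ± 0.09, adjusted p 0.0206, and 0.55 ± 0.12, 0.00682). In the p53 arm that p19Arf feeds through Mdm2, Mdm2 and Trp53 were higher in young mice at 48 (0.84 ± 0.23, adjusted p 0.0088, and 0.69 ± 0.22, 0.0244), and Mdm4 was lower in old than in young mice there (-0.51 ± 0.13, adjusted p 0.0106). For these list genes of small effect the scaling matters, since total-count scaling moved the median of all genes by 0.11 at 48 in young mice. With it, Foxo4 and Cbx7 were not called there and Mdm4 was called as higher, and Foxo4 was also not called with median-of-ratios scaling.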

How the data were processed

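Liver RNA-seq of 36 libraries (young and old mice, 6 time points, 3 each) was analysed from gene counts. The authors deposited whole-number counts per gene symbol, 1 table per library, not normalized. Per the submitters' processing notes, bcl2fastq 2.20.0, Trimmomatic 0.39, STAR 2.7.5b and featureCounts were used, with the GRCm38 and mm10 builds named. Annotation, strand and treatment of duplicates are not given in the sources used here. Per the labels' protocols, RNA was DNase-treated and depleted of ribosomal RNA, so unspliced RNA is also counted, and ERCC mix 1 was added to young and mix 2 to old samples; spike-ins were not used here, so a change in total RNA cannot be seen.

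Counts were tested in R 4.3.3 with edgeR 4.0.16 (TMM scaling, filterByExpr on the 12 groups, robust quasi-likelihood F tests, Benjamini-Hochberg adjustment over the 13436 genes that passed). All 36 libraries entered 1 fit, and the threshold for a call was an adjusted p of 0.05. The standard error is the size of the log2 fold change over the square root of F. Cdkn2a and Cdkn2b failed the filter and were compared by a two-sided permutation test of mean CPM with 100000 resamples. The pseudocount for correlations was 1. The model was tested on simulated counts.

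The alternatives took in scaling by median of ratios or by total counts, looser and stricter filters, a replicate block within age, a term for Y-linked transcripts or removal of those libraries, thinned counts, only the groups compared, DESeq2 1.42.0 and each library left out in turn. The test of the term for Y-linked transcripts itself was added after the data had been seen. The genes, lists and tests were chosen with earlier results of these data known, and the Y-linked split was known from them. The 6 genes are given in every comparison by value or range, with at most 4 called genes per list with the largest change, and the 5 genes most alike, of which 1 is not reported here. The design states biological replicates; nothing in the titles ties equal replicate numbers to a pair. Over 48 same-numbered pairs in 16 contrasts, the correlation of deviations ran from -0.378 to 0.578 (mean 0.0872), and all pairs were over 0.1 in 6 contrasts. In each of these 6 the library with Y-linked transcripts had the same replicate number in both groups. It also did in old against young at 72 and in old mice at 48 against before, where not all pairs were over 0.1. The part of the Y-linked split in these correlations was not tested. No libraries of a group agreed within sampling noise (lowest mean chi-square per gene 5.09 over 36 pairs).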

Additional observations from a re-analysis of the deposited data

Results flagged for a closer look

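The time course of 3 of the 4 genes tested differed between the ages, by edgeR's quasi-likelihood test of the age by time interaction. The adjusted p was 0.00423 for Cdkn2c, 0.0199 for Cdkn2d and 0.0378 for Cdkn1b. In each, young mice rose by 48 (by 3.64, 2.36 and 0.81 on the log2 scale) while the change in old mice at 48 was 0.83, -0.07 and -0.12. Cdkn2c in old mice was called at 72, and Cdkn2d and Cdkn1b were called at none of the later time points in old mice. With counts thinned to the smallest total, Cdkn2d was called in old mice at 72 (1.54, adjusted p 0.0198) and at 96 (1.42, adjusted p 0.0471). The thinning was a random draw that was not repeated. These genes were already known to belong to a set that differs between the ages at 48, so the interaction is not independent support.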

How the results depend on the processing

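The direction of every called value for the 6 genes was the same under all alternatives run. Counts of genes called at any time point in old mice fell from 2 to 1 without a filter on low counts, with a filter of CPM above 1 in 3 libraries, with the replicate block and with only the groups compared, and ranged from 1 to 3 with 1 library left out. The gene lost was Cdkn1c (adjusted p 0.0904, 0.0529, 0.0836 and 0.184). The count in the interaction fell from 3 to 0 without the libraries with Y-linked transcripts, which leaves 2 libraries per group (adjusted p 0.096 for Cdkn2c, 0.19 for Cdkn2d and 0.196 for Cdkn1b), and ranged from 1 to 3 with 1 library left out; it was 1 without replicate 1 or 3 of young mice at 48 or replicate 2 of old mice at 48. The age difference of Cdkn2b fell from 0.546 to 0.371 CPM without those libraries (permutation p 0.113). The counts for young mice (3; 2 without those libraries) and for the mean of the time points (0) kept their side. With the replicate block, Cdkn1b lost its interaction (adjusted p 0.0654) and Cdkn1c its 2 calls in old mice; no other call of the 6 genes changed. Over all genes, the interaction called 371, against 729 by DESeq2 and 100 without the libraries with Y-linked transcripts. Old against young at 48 called 1505, against 1 with only the groups compared. Old at 48 against before called 3243, against 221, and young at 48 against before 2949, against 1610 without those libraries. For Cdkn2c in young mice at 96, not called in the report (adjusted p 0.055), total-count scaling, the term for Y-linked transcripts, DESeq2 and only the groups compared gave calls (0.0492, 0.0334, 0.011 and 0.00129). With thinned counts Cdkn2d in place of Cdkn1c was called over time in old mice (adjusted p 0.0311). Depth limits Cdkn2a and Cdkn2b, whose counts were mostly at a few per library. The causes of these changes were not tested.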

Other observations

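The gene next to Cdkn2b on the far side from Cdkn2a, Dmrta1, a DMRT-family gene that begins 368396 bp away (chr4:89679436-89694772), was higher in old livers throughout. Its values did not overlap between the ages at any of the 6 time points, as was so for 14.4% of all genes before and 21.6% at 48. Before, the young libraries held 0, 7 and 6 counts and the old libraries 48, 65 and 38. Averaged over the time points the young mean was 0.672 CPM and the old mean 8.06 CPM, a log2 difference of 3.59 ± 0.29 (adjusted p 2.99e-09 by edgeR). At single time points the difference of Dmrta1 was called before (adjusted p 0.0149), at 48 (0.000987) and at 240 (0.0109). The calls at single time points rest on few libraries. That before was lost without any 1 of the young libraries before (0.19, 0.0539 and 0.085 for replicates 1, 2 and 3), without replicate 2 of old mice before (0.126), with only the groups compared (0.0662) and with the replicate block (0.155). That at 240 was lost without any 1 of the young libraries at 240 (0.231, 0.121 and 0.112), without replicate 1 of old mice at 240 (0.069) and with the replicate block (0.0732). Same-numbered libraries of the 2 ages correlated over 0.1 in all 3 pairs before and at 240, where replicate 1 of both ages was the library with Y-linked transcripts. The call at 48 was lost with only the groups compared (0.0678). Mtap, the next protein-coding gene on the other side of Cdkn2a, was not called at any time point (0.12 ± 0.08 averaged, adjusted p 0.449). Between Mtap and Dmrta1 lie Cdkn2a and Cdkn2b, with age differences of 0.121 and 0.546 CPM. No relation between these genes was tested.

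Cdkn1c differed between the 12 libraries with Y-linked transcripts and the other 24, which are not groups of the study. It averaged 4.10 ± 2.58 CPM in the former and 8.58 ± 3.60 CPM in the latter (SD over libraries of all groups), with ranges that overlapped over all groups. Cdkn2c, Cdkn2d and Cdkn1b were not called in that comparison by edgeR (adjusted p 0.202, 0.93 and 0.836).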
